A study of Mus musculus with 912 samples.

Results

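Dentate granule nuclei were taken from mice that visited the same environment a second time, and nuclei with FOS protein (FOS+) were compared with nuclei without it (FOS−). Every nucleus carried ARC protein by staining and belonged to a mouse exposed to context A and then to context A again (A > A). Members were all A > A nuclei sorted as ARC+ with at least 4000 genes above 1 on the log2(TPM+1) scale, where TPM is transcript abundance scaled to gene length and library size. This kept 259 of 286 A > A nuclei, out of 912 nuclei in the series. The FOS+ side held 130 of 144 nuclei and the FOS− side 129 of 142, each from 6 mice as the labels number them. Numbers 19 and 20 each stand in 2 sets of nuclei and with several ages, so that a number may cover more than 1 animal, and each was counted as 1 mouse. No cut was made on any expression score, so FOS+ nuclei with high and with low levels of late genes were kept together.

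The mice were C57BL6 females of 7.75 to 9 weeks by their labels and were wild type. They spent 15 min in an unfamiliar environment (NE), 4 h in the home cage (HC), 15 min in the same NE again and 1 h in the HC before the hippocampus was taken. Nuclei were sorted by flow cytometry as PROX1+ and CTIP2+, the combination that marks dentate granule (DG) neurons, and each nucleus became its own SmartSeq2 library. Mice 24, 25, 26 and 27 gave nuclei of both kinds, mice 15 and 16 gave FOS+ nuclei only, and mice 19 and 20 gave FOS− nuclei only. Mice 15 and 16 share no set of nuclei with mice 19 and 20, so between them FOS and the set cannot be told apart. HC nuclei sorted as FOS− (levels from the 2 mice with at least 2 nuclei) and ARC+FOS− nuclei taken 5 h after a single NE (59 nuclei, 4 mice) serve as references, both from other mice and other sets of nuclei.

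FOS is a subunit of the AP-1 transcription factor and is made within minutes of strong neuronal firing, then lost within hours. ARC, a protein that controls the removal of AMPA receptors from synapses, also appears quickly but stays in granule neurons for many hours. DG neurons fire sparsely, and the set that fires in an environment is regarded as part of the memory trace for it. In a mouse given a second exposure, ARC with FOS therefore marks recent firing, while ARC without FOS is carried by neurons that did not pass the FOS gate 1 h after that exposure.

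Granule markers were present in both kinds of nuclei, but 7 of the 10 had a count in a smaller share of FOS+ nuclei. Of the sort markers, Prox1 had a count in 96.2% of FOS+ and 96.1% of FOS− nuclei and Bcl11b, which encodes CTIP2, in 52.3% and 68.2%. C1ql2 was counted in 64.6% of FOS+ and 93% of FOS− nuclei, Trpc6 in 57.7% and 74.4%, and Glis3 in 53.1% and 64.3%. These shares pool the nuclei of all 6 mice of a kind, which differ in depth as given below, and are not compared within mice. In limma 1 of the 10 markers passed, against 2.3% of all genes called there. In edgeR 0 of the 9 markers tested passed, against 0.227% of all genes. The 10 granule markers together made up 2074 to 2608 CPM (counts scaled to library size) in the sums of the FOS+ mice and 2038 to 3008 CPM in the FOS− mice. Markers of interneurons summed to 266 to 1089 CPM in FOS+ and 326 to 1140 CPM in FOS−, and their most widely counted gene was Gad1, in 68.3% of nuclei. The 5 endothelial markers summed to 0.649 to 3.72 CPM in FOS+ and 0.54 to 40.3 CPM in FOS− mice, with Cldn5 and Ly6c1 at 0 in every mouse and a Pecam1 count in 52.9% of nuclei. Only some markers of the other cell types were tested by edgeR, such as 6 of the 8 for interneurons and 1 of the 5 for endothelium. Of those tested 0 passed, but with 0.227% of all genes called this does not set such short lists apart. Median counts per nucleus ran from 767842 to 2285990 in the FOS+ mice and from 1890940 to 2694300 in the FOS− mice. The lowest belonged to mice 15 and 16 (767842 and 807528), which were sequenced as a set of FOS+ nuclei alone. FOS+ nuclei had fewer genes with any count, with per-mouse medians of 6761.5 to 7283 against 7204 to 7527 (exact two-sided permutation p = 0.00649, 6 mice a side). Within mice 24 to 27 all 4 differences had that sign, with a mean of −254 genes (exact p = 0.125, the smallest that 4 pairs allow). Counts of calls and list medians at an equal 100000 counts per nucleus stand beside the main result and the early and late lists.

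Fos mRNA overlapped between the nuclei sorted by FOS protein. The per-mouse mean of Fos was 0.45, 1.59 and 5.34 (lowest, median and highest) in log2(TPM+1) in FOS+ and 0.13, 0.77 and 1.49 in FOS− nuclei, against 0.00 and 0.67 in the 2 HC mice. The groups overlapped, with mouse 24 far above the other FOS+ mice, although in each of the 4 mice with both kinds the summed counts were higher in FOS+. A Fos count was present in 5.26% to 68.4% of the FOS+ nuclei of a mouse and in 4.17% to 66.7% of the FOS− nuclei (exact two-sided permutation p = 0.909); the mean difference of −1.42 percentage points became 13.5 within mice 24 to 27. The fold change from edgeR was 2.17 ± 1.17 (log2, SE) with an adjusted p of 0.567. Arc mRNA was counted in all FOS+ nuclei and in 95.2% to 100% of FOS− nuclei of a mouse. Its level was 8.49, 9.11 and 9.92 in FOS+ and 7.36, 7.81 and 9.03 in FOS− mice, far above the 0.28 and 0.37 of the HC mice, and the difference did not pass (log2 fold change 0.63 ± 0.22, SE, adjusted p = 0.329).

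To ask which genes separate FOS+ from FOS− nuclei after return to the same context, counts were summed per mouse and compared by edgeR's quasi-likelihood test over 15429 genes. In all, 35 genes passed at an adjusted p of 0.05, which is 0.227% of those tested; 25 were higher in FOS+ (0.162%) and 10 were lower (0.0648%). The genes that rose include those of chromatin and RNA regulators, postsynaptic scaffolds and actin regulators, and kinases and other parts of calcium and cAMP signalling. Those that fell include a TGF-beta family receptor, an activator of RAS and a synaptic adhesion gene. In 34 of the 35 genes the CPM of the 6 FOS+ mice did not overlap those of the 6 FOS− mice. The same was so for 1.06% of all tested genes with higher and 0.719% with lower values in FOS+. All 35 moved the same way in each of the 4 mice that gave both kinds of nuclei. Both counts come from mice whose values chose these genes, so neither is separate support for the calls. With the mouse as a replicate block, 0 genes passed in edgeR (the smallest adjusted p was 0.0939, for Dclk1), and 1195 had an unadjusted p under 0.05. That fit rests on the 4 mice with both kinds, as mice with 1 kind add nothing to a difference within mice, and so has little power. Within either set of 2 mice that gave both kinds, 0 genes passed, with still less power. When each of the 8 mice was left out in turn, Kdm6b and Srrm4 were the only called genes that passed every time, and Sik2, Ippk, Hectd2 and Cstf3 passed in none of these fits. The count fell to 14 with sums per set and mouse, to 2 without mouse 27, to 10 without mouse 26, to 3 without mice 15 and 16 and to 4 where nuclei needed 5000 genes, and it rose to 87 of 10376 genes at 100000 counts per nucleus. With limma on the per-mouse mean log2(TPM+1), which gives every nucleus of a mouse equal weight, 396 of 17248 genes passed (2.3%), 218 higher and 178 lower, and 27 of the 35 were among them. DESeq2 called 650, with all 35 among them.

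**Figure D1:**
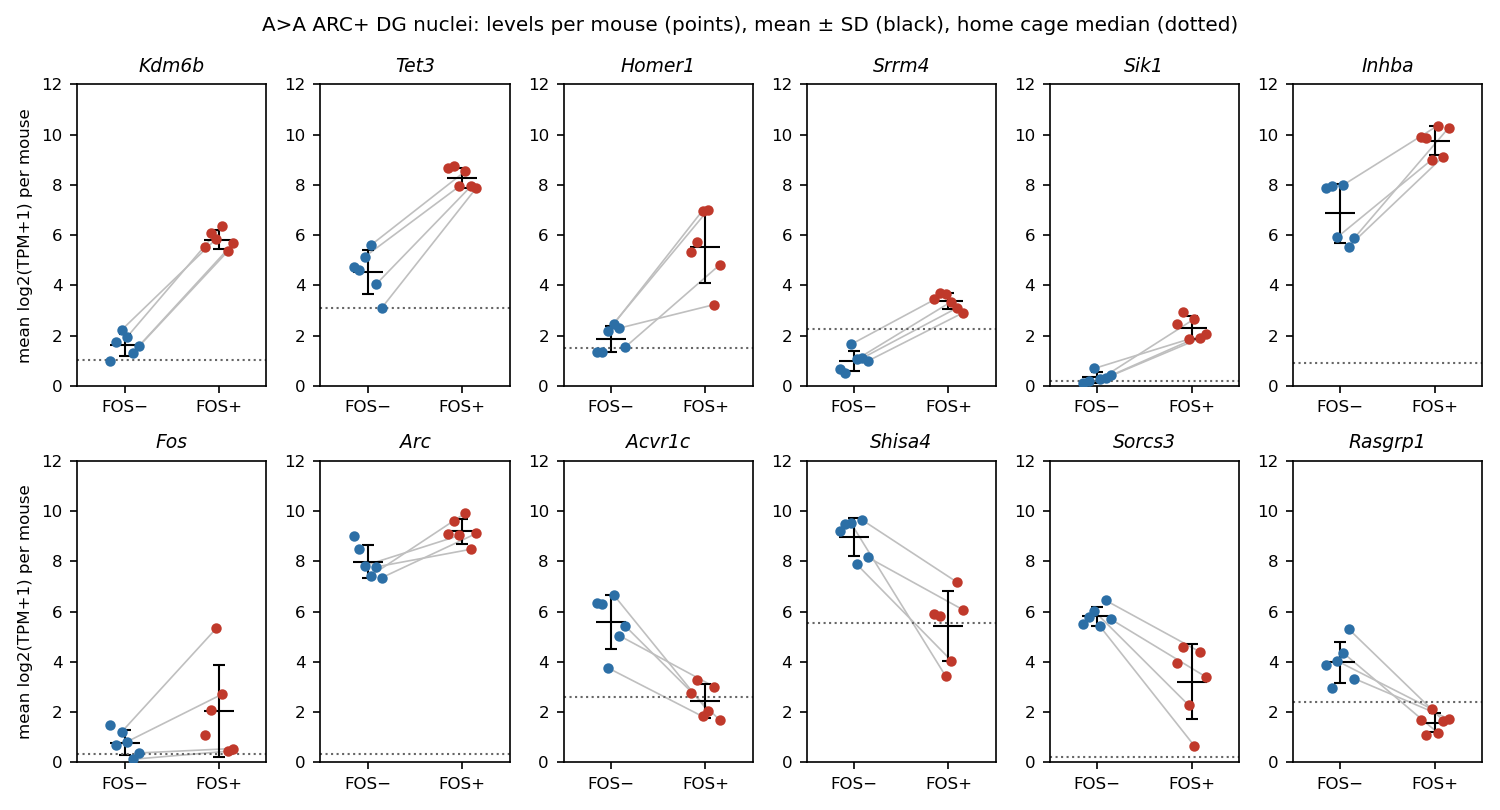
Mean log2(TPM+1) of 12 genes in FOS− (blue) and FOS+ (red) A > A nuclei, 1 point per mouse (6 a side), with the mean ± SD over mice in black, grey lines joining the 2 values of mice 24 to 27, and the median of the 2 HC mice dotted. FOS+ and FOS− mice do not overlap for Kdm6b (5.35 to 6.38 against 0.99 to 2.23) and Tet3, while they overlap for Fos and Arc.

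Among regulators of chromatin and RNA, Kdm6b separated the groups most. It encodes a demethylase that removes the repressive methyl marks of histone H3 lysine 27. Its mean was 5.35, 5.77 and 6.38 in log2(TPM+1) (lowest, median, highest) in the FOS+ mice and 0.99, 1.66 and 2.23 in the FOS− mice. Every FOS+ nucleus had a Kdm6b count, against 45.8% to 81% of FOS− nuclei of a mouse. The HC mice were at 0.68 and 1.42, below every FOS+ mouse and in part within the FOS− range. The log2 fold change was 3.50 ± 0.28 (SE, adjusted p = 0.000334), it ranged from 3.36 to 3.59 when any one mouse was left out, and it passed limma with the replicate block too (adjusted p = 0.0173). The gene lies on chromosome 11, 69398508 to 69413675, in GRCm38. Srrm4, a splicing factor that promotes neuronal microexons, came next, with 2.90, 3.41 and 3.70 in FOS+ and 0.50, 1.03 and 1.65 in FOS− mice (log2 fold change 2.61 ± 0.24, SE, adjusted p = 0.000832). Here the HC mice were at 1.94 and 2.58, between the groups, so that FOS− nuclei lay below HC and FOS+ nuclei above it. Top1, the topoisomerase that relaxes DNA ahead of RNA polymerase and helps the transcription of long genes, and Prpf38b, a presumed splicing factor, were also higher, by 1.17 ± 0.20 and 1.14 ± 0.17 (log2, SE).

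Of the 20 genes listed for chromatin and DNA demethylation, 18 were tested, and Kdm6b was the only one called (0.162% of all genes were called higher). The median log2 fold change of the 18 was 0.38, against −0.05 over all genes, and fell to −0.07 without mouse 26. Tet3, which oxidises methylcytosine as the first step of DNA demethylation, stood at 7.89, 8.25 and 8.74 in FOS+ and 3.11, 4.68 and 5.59 in FOS− mice, with no overlap. It missed the threshold in edgeR (log2 fold change 1.56 ± 0.31, SE, adjusted p = 0.0688) and passed in limma (difference 3.75 ± 0.41, SE, adjusted p = 0.000204), also with the replicate block (adjusted p = 0.0351). Jmjd1c, a gene of the JmjC demethylase family, had 8.50, 8.73 and 9.34 against 5.29, 7.24 and 7.65, again with no overlap, and an adjusted p of 0.0593 in edgeR and 0.0124 in limma. Limma called 5 of the 18, all higher, the others being Hdac5 and Brd2, against 1.26% of all genes called higher in limma.

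Among postsynaptic and actin genes, 2 of the 28 tested effectors of neuronal activity were called, both higher (0.162% of all genes were called higher). Homer1 encodes a scaffold that links metabotropic glutamate receptors to IP3 receptors, and its short activity-induced form uncouples them. Its level was 3.23, 5.54 and 7.01 in the FOS+ mice and 1.34, 1.85 and 2.48 in the FOS− mice, without overlap, against 1.24 and 1.74 in the HC mice. The log2 fold change was 3.37 ± 0.50 (SE, adjusted p = 0.018). Within a mouse, log2(CPM + 1) differed by 5.05 and 3.71 in mice 24 and 25 and by 1.09 and 2.24 in mice 26 and 27, so the size varied between the sets of nuclei while the direction did not. Counts per gene do not tell the short form from the long one.

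Dclk1, a kinase bound to microtubules, was the other effector called. Every nucleus of both kinds had a count, and the difference lay in the level, 7.88, 9.57 and 9.89 in FOS+ against 6.34, 6.73 and 7.70 in FOS− mice (log2 fold change 1.82 ± 0.21, SE, adjusted p = 0.00684). The HC mice, at 6.93 and 7.52, lay within the FOS− range, and every FOS+ mouse was above it. As these are the called members of the effector list, their promoter windows from RefSeq (GRCm38.p6, 250 bases before to 50 after a transcript start, both genes on the plus strand) are shown. Capitals mark TGACG, the core of the cAMP response element (CRE) bound by CREB, or TGANTCA, with any base at N, searched on both strands. TGANTCA is a looser form of the AP-1 site (TGAGTCA or TGACTCA) bound by FOS and JUN proteins.

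Homer1, chr13:93303507-93303806: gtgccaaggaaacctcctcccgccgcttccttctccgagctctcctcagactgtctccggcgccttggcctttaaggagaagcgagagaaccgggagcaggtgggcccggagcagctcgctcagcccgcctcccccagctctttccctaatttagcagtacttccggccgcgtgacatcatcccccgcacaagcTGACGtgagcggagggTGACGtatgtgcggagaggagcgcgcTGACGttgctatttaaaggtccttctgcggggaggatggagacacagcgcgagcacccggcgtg
Dclk1, chr3:55461478-55461777: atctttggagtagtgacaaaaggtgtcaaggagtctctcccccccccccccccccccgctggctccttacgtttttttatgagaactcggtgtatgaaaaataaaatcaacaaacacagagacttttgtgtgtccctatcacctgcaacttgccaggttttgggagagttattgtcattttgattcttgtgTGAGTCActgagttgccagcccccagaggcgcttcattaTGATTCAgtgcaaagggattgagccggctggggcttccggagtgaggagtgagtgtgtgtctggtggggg

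The Homer1 window held 3 copies of TGACG, starting 56, 40 and 14 bases before the transcript start, and the Dclk1 window held 2 copies of TGANTCA, 59 and 20 bases before it. The other annotated start of each gene held neither. TGACG occurred in 20.9% and TGANTCA in 7.79% of 32544 distinct promoter windows of this length. Windows were found for 25 of the 35 called genes, 38 in all, of which 12 held TGACG and 3 held TGANTCA. The full palindrome TGACGTCA, which would itself contain TGACG, was in 0 of them and is in 1.8% of all windows. Called genes were sought by their symbol in the count data, and a chromosome was left out by rule. Neither limit was applied to the 32544 windows. These are matches of letters, and no binding was measured.

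Further genes of the synapse and the cytoskeleton rose. Baiap2, the IRSp53 scaffold that joins membrane curvature to actin, was at 9.29, 9.46 and 10.73 in FOS+ and 7.33, 7.73 and 8.69 in FOS− mice (log2 fold change 1.76 ± 0.22, SE, adjusted p = 0.0134). Myh9, a non-muscle myosin heavy chain, had 2.05, 2.30 and 3.95 against 0.43, 0.62 and 0.72 (4.09 ± 0.64, adjusted p = 0.0225 by edgeR). Neither pair of ranges overlapped. Inf2, a formin, and Lrrc16a (now Carmil1), a regulator of actin capping, rose by 2.27 ± 0.41 and 3.82 ± 0.52 (log2, SE). Lrrc16a had a count in similar shares of nuclei of both kinds, 47.4% to 91.7% in FOS+ and 56.2% to 79.2% in FOS− mice, and its call did not hold in limma (adjusted p = 0.102). Sgip1, an endocytic adaptor, and Nav2, a neuron navigator gene, rose by 1.83 ± 0.26 and 1.92 ± 0.30 (log2, SE). For Nav2 the HC mice, at 5.70 and 7.05 in log2(TPM+1), were above all FOS+ mice (3.95 to 5.66) and all FOS− mice (2.19 to 3.48).

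Kinases and calcium and cAMP signalling made up another group. Sik1, a salt-inducible kinase that restrains the CREB coactivators and is itself a CREB target, was at 1.86, 2.27 and 2.96 in FOS+ and 0.13, 0.29 and 0.69 in FOS− mice. It was counted in 47.4% to 95.7% of FOS+ and 16.7% to 38.1% of FOS− nuclei of a mouse, and the HC mice were at 0.02 and 0.34. The log2 fold change was 4.82 ± 0.82 (SE, adjusted p = 0.0368). Its relative Sik2 was present in every nucleus and rose by 0.92 ± 0.17 (log2, SE). This is the smallest fold among the 25 genes called higher. Pde4a, a phosphodiesterase that degrades cAMP, was at 5.07, 5.99 and 6.63 against 2.68, 3.25 and 4.39 (1.61 ± 0.27, adjusted p = 0.0368 by edgeR). Itpr1, the IP3 receptor that releases calcium from internal stores, and Ahcyl2, a relative of the IP3 receptor-binding protein IRBIT, rose by 1.76 ± 0.25 and 1.58 ± 0.28 (log2, SE). Rapgef6, an exchange factor for the GTPase RAP, and Ippk, the kinase that makes inositol hexakisphosphate, rose by 1.55 ± 0.24 and 1.21 ± 0.22. Kcna1, a potassium channel subunit that limits firing, was the single called gene of the 29 potassium channel genes tested (0.162% of all genes were called higher). It was at 5.33, 6.80 and 7.30 in FOS+ and 2.79, 4.06 and 5.39 in FOS− mice (1.55 ± 0.24, adjusted p = 0.0225 by edgeR). Its groups overlapped slightly on that scale and not in CPM.

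Of the 22 genes listed for kinase and CREB feedback, 19 were tested, 2 were called (Sik1 and Sik2, both higher, against 0.162% of all genes) and the median log2 fold change of the 19 was 1.07, against −0.05 over all genes. Spred1 and Dusp6, inhibitors of the RAS and ERK pathway, had folds of 2.12 ± 0.48 and 2.08 ± 1.19 (log2, SE) that did not pass. Dusp14, another phosphatase, had −2.46 ± 0.91 (adjusted p = 0.35). Crtc1, the CREB coactivator that SIK kinases phosphorylate, was at 1.80, 3.63 and 4.37 in FOS+ and 4.23, 4.98 and 6.55 in FOS− mice, with a slight overlap, and passed in limma alone (difference −1.96 ± 0.50, SE, adjusted p = 0.0479).

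The remaining genes called higher have other roles. Osbpl6, a lipid transfer protein, was at 7.51, 8.31 and 9.71 in FOS+ and 3.82, 4.60 and 5.63 in FOS− mice, with a log2 fold change of 1.74 ± 0.24 (SE, adjusted p = 0.0134). Ankrd33b, which has ankyrin repeats, was at 7.60, 7.87 and 8.39 against 3.68, 4.45 and 6.65. Hectd2, a ubiquitin ligase gene, rose by 1.27 ± 0.22 (log2, SE), and its call did not hold in limma (adjusted p = 0.0735). A pair of genes was nearly absent from FOS− nuclei. Pfkfb4, an enzyme that sets the pace of glycolysis, had counts in 9 of 130 FOS+ nuclei and 0 of 129 FOS− nuclei, which allows a share of nuclei with a count of up to 2.33% (counting error only, with nuclei taken as independent), and Gxylt2, a xylosyltransferase, in 13 of 130 and 1 of 129. Both passed the low-count filter through the FOS+ group alone, so their calls rest on these few nuclei.

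Among the 10 genes called lower was Acvr1c, which encodes ALK7, a type I receptor of the TGF-beta family. Acvr1c was at 1.69, 2.41 and 3.29 in FOS+ and 3.76, 5.88 and 6.67 in FOS− mice (log2(TPM+1)). The HC mice, at 2.60 and 2.64, sat within the FOS+ range, and the 4 mice taken 5 h after a single NE reached from 2.53 to 5.55. The log2 fold change was −2.27 ± 0.40 (SE, adjusted p = 0.0425), although the summed CPM of the groups overlapped. Inhba, which encodes the subunit of activin A, a ligand of the same family, went the other way, with 9.01, 9.89 and 10.36 in FOS+ and 5.55, 6.90 and 7.99 in FOS− mice, both far above the HC values of 0.75 and 1.07. Its difference passed in limma (2.90 ± 0.47, SE, adjusted p = 0.0031), also with the replicate block (adjusted p = 0.0351), and not in edgeR (1.27 ± 0.33, adjusted p = 0.174).

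Rasgrp1, which activates RAS in response to calcium and diacylglycerol, fell from 2.98, 3.96 and 5.31 in FOS− to 1.11, 1.68 and 2.12 in FOS+ mice (log2 fold change −2.10 ± 0.29, SE, adjusted p = 0.0134). Shisa4, a transmembrane protein of the SHISA family, fell from 7.89, 9.35 and 9.64 to 3.43, 5.87 and 7.18 (−1.60 ± 0.23, adjusted p = 0.0149 by edgeR). In both genes every FOS+ mouse lay below every FOS− mouse. Ogt, the single enzyme that adds O-linked N-acetylglucosamine to nuclear and cytoplasmic proteins, fell by 1.08 ± 0.15 (log2, SE). It is an X-linked gene (chromosome X, 101640060 to 101684351), and its FOS− mice were tightly placed at 9.79 to 10.28 while FOS+ mice spread from 7.39 to 9.44. Cstf3, a subunit of the cleavage factor for mRNA 3′ ends, fell from 5.18, 6.35 and 7.25 to 3.12, 4.11 and 5.07, and Lingo2, a leucine-rich repeat gene of synaptic adhesion, from 5.80, 6.52 and 7.76 to 3.51, 5.12 and 5.88, with a slight overlap on this scale. Slc39a6, a zinc transporter, fell by 1.49 ± 0.25 (log2, SE).

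Cdr2l and Klhl24 were among the genes called lower with the largest folds (−5.31 ± 0.83 and −4.16 ± 0.74, log2, SE) but had low levels. In log2(TPM+1) they were at no more than 1.05 and 1.64 in any mouse, and neither call held in limma (adjusted p = 0.0685 and 0.105). Their shares of nuclei with a count overlapped between the groups. For Klhl24, a gene of the Kelch-like family, the FOS+ mice had counts in 63.2% to 89.5% of nuclei and the FOS− mice in 75% to 100%. Ebp, an enzyme of cholesterol synthesis, had the smallest p in edgeR among genes with lower and non-overlapping CPM that did not pass (adjusted p = 0.0593).

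**Figure D2:**
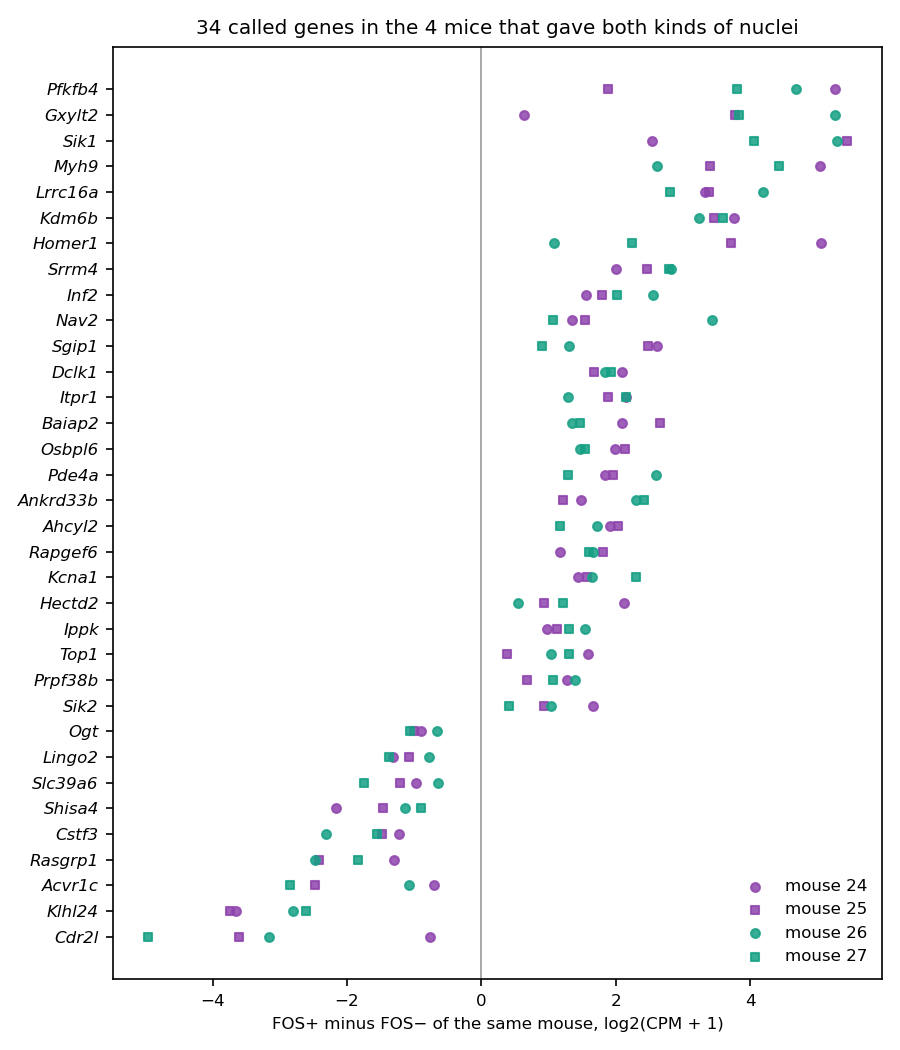
Difference between FOS+ and FOS− nuclei of the same mouse in log2(CPM + 1) for 34 of the 35 called genes, ordered by fold change, for the 4 mice that gave both kinds (purple, mice 24 and 25 of one set; green, mice 26 and 27 of another). All points of the 25 genes called higher lie right of 0 and all points of the 9 shown that were called lower lie left of it.

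None of the 24 activity transcription factors tested passed in edgeR (0 called, against 0.227% of all genes, and 7 with an unadjusted p under 0.05, all higher). Of the 24, 20 had a positive fold (83.3%, against 47.5% of all genes), and their median log2 fold change was 1.37, against −0.05 over all genes. Nr4a2, an orphan nuclear receptor, was at 1.81, 3.86 and 6.41 in FOS+ and 0.30, 1.34 and 2.35 in FOS− mice. The ranges overlapped, and the lowest level of each kind was that of mouse 26. Its fold was 2.41 ± 1.01 (log2, SE) in edgeR with an adjusted p of 0.435, and it passed limma (2.78 ± 0.64, SE, adjusted p = 0.0289). Per1, a repressor of the circadian clock that is also a CREB target, was at 3.81, 4.24 and 5.64 against 1.18, 2.26 and 2.66, with no overlap (adjusted p = 0.111 in edgeR and 0.0031 in limma).

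The largest folds of this list were those of Egr4, Npas4, Fosb and Csrnp1, at 4.94 ± 1.84, 4.22 ± 1.84, 2.95 ± 1.37 and 2.77 ± 1.54 (log2, SE). Their levels were low and their groups overlapped in CPM. Npas4, a factor made only on calcium entry, was counted in 0% to 26.1% of the FOS+ nuclei of a mouse and in 0% to 14.3% of the FOS− nuclei. Limma called 7 of the 27 factors it tested, all higher, or 25.9%, against 1.26% of all genes called higher. This list and those of effectors, kinases and chromatin were chosen with earlier results of these data known. Their shares against all genes are therefore descriptive and no independent test.

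Of the 28 effectors of activity tested, Homer1 and Dclk1 included, 24 had a positive fold and the median log2 fold change was 1.01, against −0.05 over all genes. Pim1, a serine/threonine kinase, was at 2.16, 3.16 and 3.77 in FOS+ and 0.23, 0.88 and 1.23 in FOS− mice (adjusted p = 0.0779 in edgeR and 0.000811 in limma). Plk2, a kinase of homeostatic synaptic scaling, was at 10.03, 10.23 and 10.89 against 7.60, 8.69 and 9.69. For Plk2 the HC mice were at 2.57 and 4.10, below every mouse of both kinds. Bdnf, the neurotrophin, overlapped between groups at 7.92, 8.97 and 9.46 against 6.39, 8.06 and 8.75 and passed neither test (log2 fold change 0.34 ± 0.24, SE, adjusted p = 0.684). Rgs4, an inhibitor of G protein signalling, was lower, from 4.48, 6.64 and 7.75 in FOS− to 3.75, 4.19 and 5.72 in FOS+, and passed in limma (difference −1.97 ± 0.50, SE, adjusted p = 0.0463) but not in edgeR; within mice 24 to 27 its log2(CPM + 1) differed by −0.14, 0.04, −1.03 and −0.17. Pcsk1 and Tiparp complete the largest folds of the list, at 2.07 ± 0.96 and 2.64 ± 0.88 (log2, SE), and both passed in limma and not in edgeR.

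The study sorted genes by their course after a single NE into early genes (raised at 1 h and no longer at 4 h), sustained genes (raised at 1 h and still at 4 h and 5 h) and late genes (raised at 4 h and 5 h, though not yet at 1 h). These lists were drawn from HC, 1 h, 4 h and 5 h nuclei, none of which are A > A nuclei. Of the 251 early genes tested, 228 had a positive fold (90.8%, against 47.5% of all genes), with a median log2 fold change of 0.95. edgeR called 8 higher, against 0.162% of all genes, and 0 lower, while 102 had an unadjusted p under 0.05 on the higher side and 1 on the lower. Kdm6b, Srrm4, Osbpl6, Rapgef6 and Myh9 were the 5 early genes of smallest p. In limma 76 of 252 were called higher (30.2%, against 1.26% of all genes) and 0 lower. At 100000 counts per nucleus edgeR called 25 higher, and the median was 1.01.

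Of the 107 sustained genes, 81 had positive folds with a median of 0.39, and edgeR called 1, Prpf38b, higher (0.162% of all genes). Gpr3, a receptor that raises cAMP without a ligand, was at 3.90, 5.11 and 6.74 in FOS+ and 0.76, 1.07 and 1.97 in FOS− mice, and was listed at 0 in both HC mice. It missed the threshold in edgeR (log2 fold change 3.34 ± 0.64, SE, adjusted p = 0.0629) and passed in limma with the replicate block (adjusted p = 0.0351). Rfwd2, Mir22hg and Tet3, the other sustained genes of smallest p, likewise did not pass in edgeR and passed in limma. Limma called 25 of the 107 higher and 1 lower, against 1.26% and 1.03% of all genes.

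Most late genes had a negative fold. Of the 129 tested, 37 had a positive fold (28.7%), and the median log2 fold change was −0.47. edgeR called 0 higher and 2 lower, Acvr1c and Shisa4, against 0.162% and 0.0648% of all genes. An unadjusted p under 0.05 was found for 43 on the lower side and 2 on the higher. At 100000 counts per nucleus the late median was −0.28, with 0 called higher and 3 lower. Fam19a1, a secreted neurokine gene, was at 8.98, 10.09 and 10.36 in FOS− and at 3.77, 6.60 and 7.76 in FOS+ mice, and passed in limma (difference −3.89 ± 0.62, SE, adjusted p = 0.00283) and not in edgeR (adjusted p = 0.108). Pdzd2, a protein with PDZ domains, had a fold of −1.05 ± 0.25 (log2, SE, adjusted p = 0.123). Limma called 13 lower (10.1%, against 1.03% of all genes) and 2 higher.

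**Figure D3:**
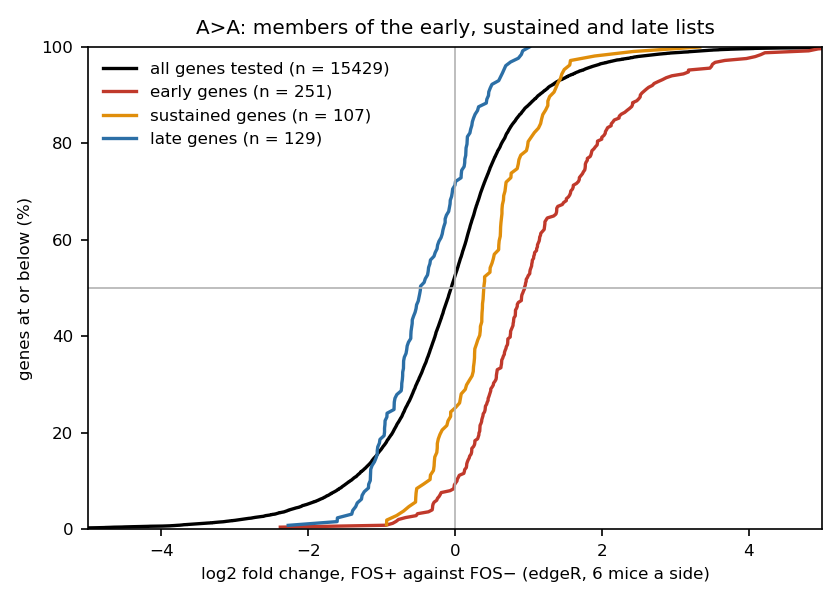
Cumulative share of genes (in percent) at or below each log2 fold change of FOS+ against FOS− in A > A nuclei, for all 15429 genes tested (black) and for members of the early (red), sustained (orange) and late (blue) lists. Curves cross 50% at −0.05, 0.95, 0.39 and −0.47 for all, early, sustained and late genes; folds beyond 5 in either direction are outside the axis.

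The 19 late and reactivity genes that the study names were less uniform, with 6 positive folds and 0 called, against 0.227% of all genes called. Their median log2 fold change was −0.16, which was −0.021 at 100000 counts per nucleus and −0.39 when a replicate block for the mouse was used. Sorcs3, a sortilin receptor that takes part in the trafficking of glutamate receptors, was at 0.66, 3.68 and 4.60 in FOS+ and 5.42, 5.74 and 6.45 in FOS− mice. The ranges did not overlap, and the FOS− mice lay near the mice taken 5 h after a single NE (5.03 to 6.08) while HC mice were at 0.00 and 0.43. In FOS+ nuclei of mouse 25 a count was present in 39.1% of nuclei, and in mouse 26 in 100%. The summed log2(CPM + 1) differed by −2.09 and −4.66 within mice 24 and 25 and by −0.52 and −0.31 within mice 26 and 27, and the fold did not pass in edgeR (−1.13 ± 0.51, SE, adjusted p = 0.472) but did in limma (adjusted p = 0.0189). Blnk, an adaptor better known from B cells, overlapped fully, at 1.90, 3.88 and 5.38 in FOS+ and 2.58, 4.16 and 4.60 in FOS− mice (fold −0.27 ± 0.55, SE, adjusted p = 0.909). Tnik, a kinase of the postsynaptic density, had a fold of 1.18 ± 0.31 (log2, SE) that did not pass in edgeR, and passed in limma (2.53 ± 0.59, SE, adjusted p = 0.0305). Gabra4, a GABA-A receptor subunit, had a fold of −0.96 ± 0.30 (log2, SE) that did not pass in edgeR.

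Averaged over its members, the early list did not overlap between the mice of the 2 kinds of nuclei. Its mean log2(TPM+1) was 2.84, 3.53 and 3.83 (lowest, median, highest) in FOS+ and 1.97, 2.15 and 2.63 in FOS− mice, against 2.21 and 2.28 in HC. The sustained list was at 5.90 to 6.63 in FOS+ and 5.01 to 5.43 in FOS− mice, and both lay above the HC mice (2.64 and 2.86). For the late list the groups overlapped, at 3.32 to 4.53 in FOS+ and 4.15 to 4.64 in FOS− mice, both above HC (2.55 and 2.69). Late genes differed by −1.26 and −1.28 between FOS+ and FOS− nuclei of mice 24 and 25 and by −0.35 and −0.25 in mice 26 and 27. Mice 15 and 16, which gave FOS+ nuclei only and the shallowest libraries, had the highest late levels among FOS+ mice (4.53 and 4.49), a level found in FOS− mice. Without these 2 mice the late median log2 fold change was −0.51.

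**Figure D4:**
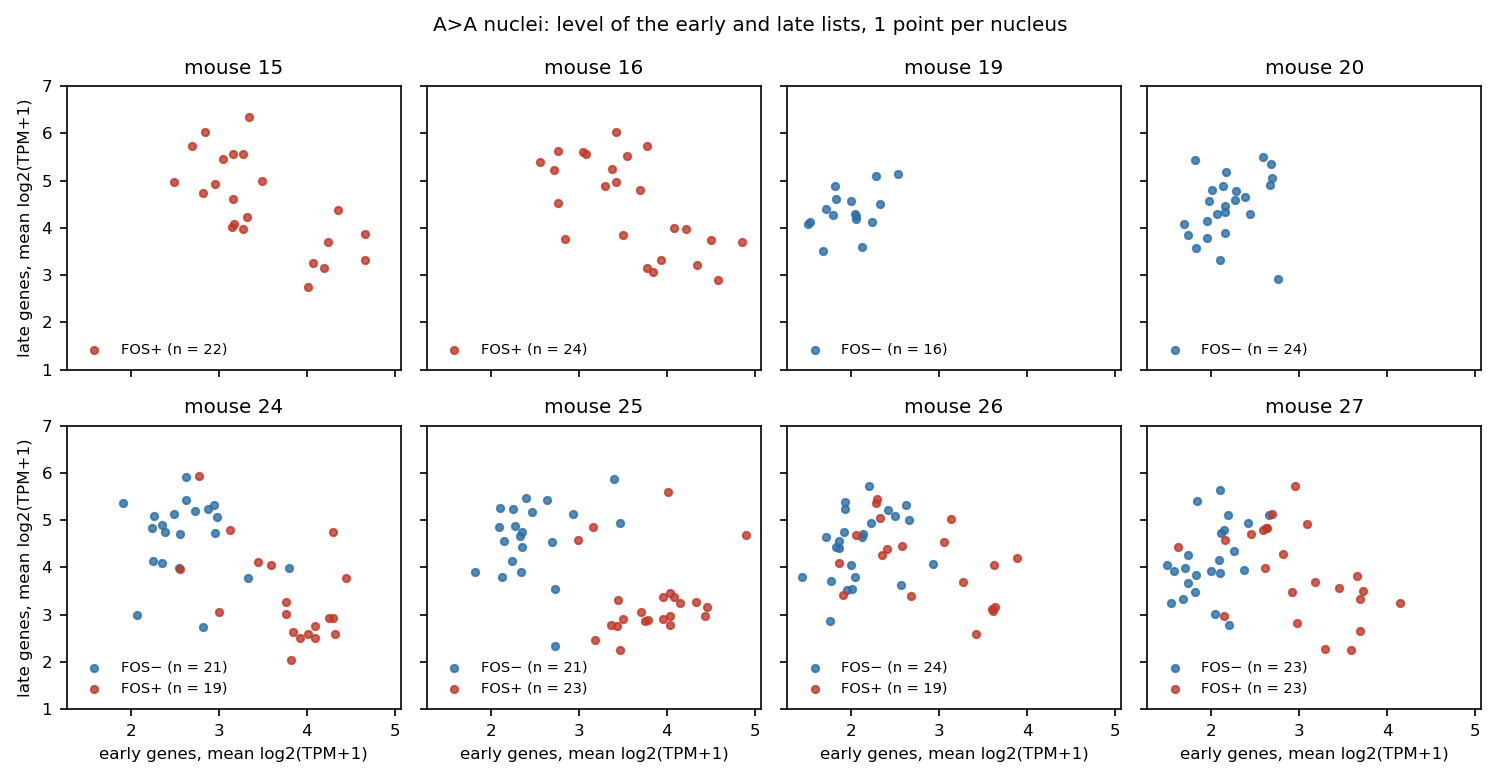
Mean log2(TPM+1) over the 252 early genes (x) and the 129 late genes (y) in each of the 259 A > A nuclei, by mouse, with FOS+ nuclei red and FOS− nuclei blue. In mice 15 and 16 FOS+ nuclei run from few early and many late transcripts to the reverse, with Spearman rho of −0.62 and −0.64, while most FOS+ nuclei of mouse 25 lie at high early and low late levels.

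FOS+ nuclei of one mouse were not alike. Over the nuclei of a mouse, the SD of the late level was 0.82 to 1.00 in FOS+ and 0.45 to 0.81 in FOS− mice, and that of the early level was 0.47 to 0.67 and 0.29 to 0.44, so the spread was wider in every FOS+ mouse for both lists. In 5 of 6 FOS+ mice, nuclei with more early transcripts had fewer late ones, with Spearman rho over 19 to 24 nuclei of −0.62, −0.64, −0.43, −0.52 and −0.50 for mice 15, 16, 24, 26 and 27. Mouse 25 was the exception, at 0.28. Among FOS− nuclei the sign was mostly the reverse, with rho of 0.40, 0.38, 0.20, 0.36 and 0.43 for mice 19, 20, 25, 26 and 27 and −0.05 for mouse 24. These values describe nuclei that share an animal, a library set and the normalization to TPM. The early level of FOS+ nuclei also rose with the count total of the nucleus, with rho from 0.07 to 0.46, and the late level had rho from −0.33 to 0.22 with it.

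Few genes of other groups were called. Over all genes 0.227% were called, so 0 calls in lists this short do not set them apart. Of 75 nuclear genes of the respiratory chain, 0 were called, but 17 had a positive fold (22.7%, against 47.5% of all genes), with a median of −0.32. Glutamate receptor genes (20 tested) and GABA receptor genes (12 tested) had 0 called each and medians of 0.16 and −0.25. The 29 potassium channel genes had a median of −0.06 and Kcna1 as their single call, and the 10 heat shock and chaperone genes had 0 called and a median of −0.03, against −0.05 over all genes. Mitochondrially encoded genes were not analysed here.

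To ask whether return to the same context differed from a visit to another one, the FOS+ to FOS− difference of A > A mice was set against that of mice exposed to A and then to C (A > C, 48 FOS+ and 46 FOS− nuclei, 2 mice each). No gene passed among the 20716 tested by edgeR (0 called, 0%, the smallest adjusted p was 0.526), 1100 had an unadjusted p under 0.05, and limma also called 0, while DESeq2 called 827 and single genes passed without mouse 11 (1) or mouse 13 (2). Of the 35 genes called in A > A, 8 had an unadjusted p under 0.05 for the difference, against 1100 of all 20716. These genes were chosen by their A > A fold, which is part of the difference, so this count cannot show an effect of context. Kdm6b was at 6.58 and 6.82 in the A > C FOS+ mice and 1.76 and 1.90 in the FOS− mice, and the A > A fold minus the A > C fold was −0.65 ± 0.50 (log2, SE). Sorcs3 was at 0.47 and 0.89 in the A > C FOS+ mice and at 4.75 and 6.56 in the FOS− mice. The A > A fold minus the A > C fold of Sorcs3, 3.06 ± 1.02 (log2, SE), did not pass (adjusted p = 0.94 in edgeR). In A > C the 2 kinds of nuclei came from different mice and different sets, so that FOS and the set cannot be told apart there.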

How the data were processed

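Nuclei were sorted from hippocampus and sequenced as polyadenylated RNA by SmartSeq2. The authors trimmed reads, aligned them to mm10 (GRCm38) with Ensembl annotation using RSEM with Bowtie, and deposited expected counts per gene. The annotation release is not given in the sources used here. The authors also deposited log2(TPM+1) values. Of 42802 genes listed with counts, 30 without a value were dropped, and 23 of 40221 in the log2 table. Nuclei with at least 4000 genes above 1 in the log2 table were kept.

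Expected counts were made whole by dropping any fraction and were summed per mouse, to 17148939 to 60481935 counts a sum. The sums were tested with edgeR 4.0.16 (quasi-likelihood, R 4.3.3) with Benjamini-Hochberg adjustment at 0.05. Alternatives used limma 3.58.1 on per-mouse mean log2(TPM+1), for genes with a mean of at least 0.1, and DESeq2 1.42.0. Only the unpaired edgeR test was run on simulated counts with known folds, drawn without pairs of mice or sets of nuclei. Counts carry no molecular identifiers, so the limits given for a count of 0 cover counting error only; SEs cover the spread between mice. Nuclei of 1 mouse are not replicates, so tests compared mice. Mouse numbers come from the labels, which give more mice for A > A than a supplement of the study does; numbers 19 and 20, with several ages over 2 sets, were merged as 1 mouse each. Mice 24 to 27 pair the groups. Deviations of same-mouse sums correlated at 0.0114 to 0.0784 (4 pairs), and those of different mice at −0.0778 to 0.0743 (32 pairs). Among mice 24 to 27, different mice of the same set correlated at 0.0250 to 0.0743, and mice of different sets at −0.0778 to −0.0125. The main fit had no term for the set.

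Members and gene lists were chosen with earlier results of these data known. Named are the called genes of largest fold with non-overlapping CPM (10 each way, filled in order of p), the called genes and the 4 largest folds of 5 activity lists, and the 5 smallest p of the early, sustained and late lists; other genes were chosen after their values were seen. Values of 2 genes that this rule names are not reported here.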

Additional observations from a re-analysis of the deposited data

Results flagged for a closer look

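Of 154 sets of 6 mice (1 gene or library measure in 1 group each), 9 had 1 mouse that lay apart from the other 5 in mean log2(TPM+1) by Dixon's criterion, which chance meets in about 1 in 20 groups. Among FOS+ mice, Ahcyl2 was at 7.80 in mouse 25 against 5.76 to 6.17 in the others, and Cdr2l was at 0.506 in mouse 26 against 0.211 to 0.241. Dclk1 was at 7.88 in mouse 26 against 9.36 to 9.89, still above every FOS− mouse. Gxylt2 was at 1.19 in FOS+ nuclei of mouse 26 against 0.354 to 0.648, and also stood apart in FOS− nuclei of that mouse, at 0.033 with 0 in the other 5 mice. Mouse 24 was the highest FOS+ mouse for Myh9 (3.95 against 2.05 to 2.69), Pfkfb4 (0.912 against 0.161 to 0.414) and Egr4 (2.82 against 0.213 to 1.03). Npas4 was at 0.376 in FOS− nuclei of mouse 27 against 0 to 0.138 in the others.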

How the results depend on the processing

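The 35 calls of edgeR became 650 with DESeq2, 396 with limma, 18 with limma and a replicate block, 87 at 100000 counts per nucleus, 21 without a filter on low counts, 10 in 1 fit over all DG groups, 14 with sums per set and mouse, 18 without the nuclei of set X170113, 1 without set X021618, 4 with at least 5000 genes and 3 without mice 15 and 16. They were 0 with the mouse as a replicate block, among the 4 mice with both kinds and within set X170525 or set X021618. These fits rest on the same 4 mice or on 2 of them, so they are not separate checks. Leaving out 1 mouse gave 2 to 41 calls. The minimum of 100000 alignable reads removed no nucleus. Omitting mice 15 and 16 and limma with a replicate block were chosen after seeing the data. The causes were not tested.

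Calls among early genes (8) became 58, 76 and 25 with DESeq2, limma and equal depth, 5 without a filter, 2 over all DG groups, 5 without set X170113, 3 per set and mouse, 2 without mice 15 and 16, and 0 with a replicate block, in the 4 paired mice, within either set, without set X021618 or with 5000 genes; leaving out 1 mouse gave 2 to 9. The 2 late genes called lower became 14 with DESeq2 and 13 with limma, 1 with DESeq2 size factors, no filter, all DG groups, without set X170113 or with 5000 genes, and 0 with either replicate block, in the paired mice, within either set, without set X021618 or without mice 15 and 16; leaving out 1 mouse gave 0 to 2.

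Median log2 folds kept their direction except for the chromatin list, which ran from −0.068 (without mouse 26) to 0.64 when 1 mouse was left out. It was 0.18 without a filter, 0.17 over all DG groups, 0.74 with the replicate block, 0.75 in the paired mice, 0.65 and 0.81 within sets X170525 and X021618, 0.094 without set X021618, 0.091 per set and mouse, 0.57 with 5000 genes and 0.57 in limma. The early median was 1.32 within set X170525. The sustained median was 0.61 with the replicate block, 0.62 in paired mice, 0.64 within set X021618, 0.92 in limma and 0.80 in limma with the block. The late median was −0.17 within set X021618 and −0.74 in limma with the block. That of transcription factors was 2.20 with the block, 2.15 in paired mice, and 2.56 and 2.10 within sets X170525 and X021618. Effectors had 1.36 within set X021618, 1.51 in limma and 1.53 with its block. Kinase and CREB genes had 0.65 within set X021618, 0.55 with 5000 genes, 0.53 in limma and 0.33 with its block. Late genes named in the study had −1.03 within set X170525 and −0.94 in limma with the block. Leaving out 1 mouse gave 0.88 to 0.97 for early, 0.38 to 0.49 for sustained, −0.53 to −0.35 for late, 1.12 to 1.55 for transcription factors, 0.87 to 1.11 for effectors, 0.90 to 1.09 for kinase genes and −0.33 to −0.07 for the named late genes.

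The difference between A > A and A > C gave 827 calls with DESeq2, and 0 to 2 when 1 mouse was left out; no replicate block could be estimated there, as each A > C mouse is in 1 group. Bdnf changed sign with 5000 genes (−0.028), and Blnk did so with 5000 genes (0.58), while leaving out 1 mouse gave it −0.51 to 0.050, above 0 without mouse 19 or mouse 25. The difference in the share of nuclei with a Fos count changed sign without the filter on genes (0.94 percentage points), with detection above 1 (10.9) and in the paired mice (13.5), and that in genes above 1 did so in the paired mice (−326). Genes with any count differed by −254 there, where 4 pairs cannot reach 0.05.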
